A study of Mus musculus with 8 samples.

Results

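Interferons are secreted signals of antiviral and antitumor defence that bind receptors at the cell surface and, through Jak kinases and transcription factors such as Irf9, switch on a broad program of effector genes. The 35 genes described here belong to that program but lie outside its best-known families (OAS, IFIT, MX, GBP, IRF and PARP). Their proteins degrade or alter nucleotides and viral RNA, unwind RNA, attach ubiquitin, build nuclear bodies, hold budding virus at the membrane or promote cell death. Epithelial cells of the stomach, like most cell types, carry interferon receptors and can run this program.

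The genes were picked by symbol from a table of 25140 named genes, and their levels were measured in EpCAM-positive (epithelial) cells sorted from antral gastric tumors of 8 mice, 1 library per mouse. In Gp130FF; Yap1KO mice (4 libraries), exon 3 of the floxed Yap1 gene had been deleted with tamoxifen through Tff1:CreERT2, a Cre recombinase. Its promoter is active mainly in the surface (foveolar) epithelium of the stomach, so sorted cells in which Cre was not active would keep Yap1. The counts are per gene and do not separate exon 3 from the other Yap1 exons. Gp130FF; Yap1WT mice (4 libraries) kept Yap1. All 8 mice carried the homozygous Gp130 mutation (Gp130FF) that gives rise to these tumors, and were 18 weeks old and sampled 3 days after tamoxifen according to the labels, whereas the study's methods describe the Yap1WT animals as vehicle-treated littermates with the same floxed allele. Which of these holds is not settled by the sources used here, and if Yap1WT mice had vehicle, tamoxifen and Yap1 loss cannot be told apart. The study's methods also give an age of 18 weeks, while its results text gives an older age for the sequenced mice.

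Counts summed to between 18229945 and 74278015 per library in Yap1KO and between 27607755 and 77483047 in Yap1WT tumors. Yap1 itself had 21.3, 27.6, 29.7 and 24.2 CPM in Yap1KO tumors, against 77.1, 64.2, 78.0 and 72.5 CPM in Yap1WT tumors (CPM, counts scaled to library size with TMM normalization, given for replicates 1 to 4 of each group). The groups did not overlap, and all 8 libraries matched their labels (log2 fold change -1.51, SE 0.13, adjusted p = 0.000208). The epithelial markers Epcam, Cdh1, Krt8, Krt18, Krt19 and Cldn18 were abundant in every library, with a summed level of 9351 to 11799 CPM in Yap1KO and 9993 to 12152 CPM in Yap1WT tumors. Epcam, the gene of the sorting marker, was higher in Yap1KO tumors (1.69-fold, adjusted p = 0.00188). Among the Yap1KO libraries, replicate 2 had the lowest level of its group in 22 of the 33 genes tested. The same count over all genes was not made, and results without replicate 2 are given below.

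Interferon-stimulated effector genes were higher in tumor epithelium that had lost Yap1. Of the 35 genes, 33 had enough reads to be tested, and 27 of them (81.8%) were higher in Yap1KO than in Yap1WT tumors at an adjusted p under 0.05, beside 3.53% of all 13495 genes tested (5.87% in either direction). The number that was lower was 0, both at the adjusted threshold and at an unadjusted p under 0.05 (edgeR), beside 2.34% of all genes at the adjusted and 8.97% at the unadjusted threshold, and DESeq2 and limma-voom also called 0 members lower. Every one of the 33 had a fold change above 1, with a median log2 fold change of 1.29 against -0.01 for all genes tested. In 26 of them (78.8%) the lowest Yap1KO library was above the highest Yap1WT library, beside 7.19% of all genes. Of the 33, 31 passed the minimum of 0.5 CPM in all 8 libraries and Slfn8 and Ifi44 passed it in 7. The genes were chosen with earlier results of these libraries known, so these counts describe the list and are no independent test of it. The members lie on 11 chromosomes (GRCm38.p6), with 8 of them on chromosome 11. In bulk RNA, more cells that express a gene and more RNA per cell cannot be told apart. Endothelial markers lay in the same direction (median log2 fold change 1.32, with 1 of 6 called). At an unadjusted edgeR p under 0.05, 5 of 6 were higher, beside 11.5% of all genes. The part of endothelial cells in the counts above was not tested.

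**Figure D1:**
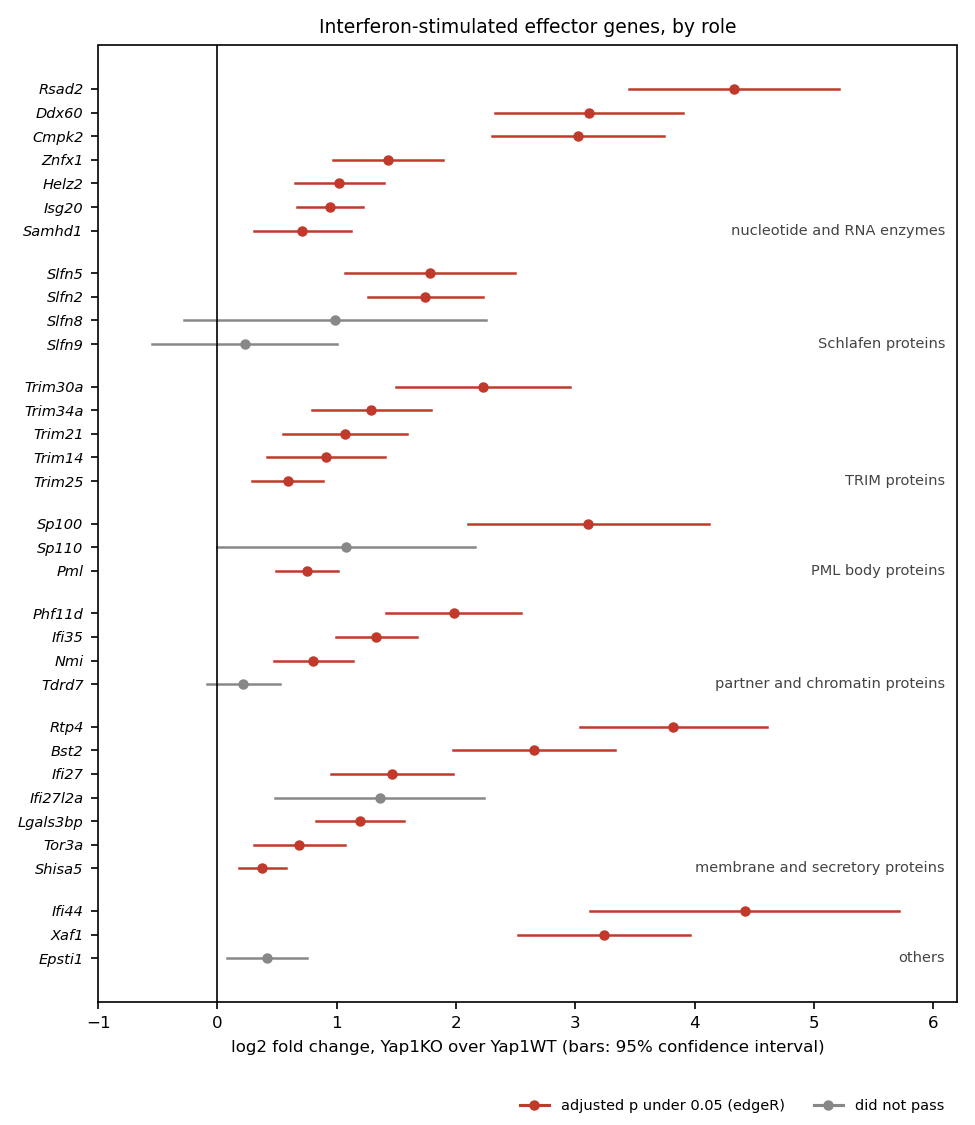
Log2 fold change, Yap1KO over Yap1WT (horizontal axis), of the 33 tested genes, grouped by role (vertical axis). Points are edgeR estimates and bars their 95% confidence intervals, in red for the 27 genes past the adjusted threshold and in grey for the 6 that were not, and all 33 points lie to the right of 0.

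Promoter sequences of the members were also examined. Transcription factors of the interferon response, among them Irf9, bind an interferon-stimulated response element whose core is a GAAA repeat with 2 bases of any kind between the copies (GAAA, NN, GAAA, or TTTC, NN, TTTC when read on the other strand). Windows of 250 bases before to 50 bases after the annotated start (RefSeq, GRCm38.p6) were at hand for 30 of the 35 members, and 12 of these 30 (40%) held the core on either strand, beside 3.99% of 27025 genes. A gene with several starts counted when any of its windows held a motif. Of single windows, 14 of 43 from members (32.6%) held the core, beside 3.44% of all 32851 windows. The members without a window are Trim14, Ifi27, Ifi27l2a, Tor3a and Rtp4. The core was found in 8 of 23 members that were higher in Yap1KO tumors (34.8%) and in 4 of 7 that were not called or not tested (57.1%), namely Slfn8, Slfn9, Phf11b and Tdrd7. The Stat dimer core TTCNNNGAA was found in 5 of 30 members (16.7%), beside 9.55% of genes, and CATTCC, the core bound by the Yap1 partners of the TEAD family, also in 5 of 30 (16.7%), beside 16.6% of genes. Both were searched on either strand, and Bst2 and Shisa5 held all 3 motifs. In Shisa5 they lay in 1 of its 5 windows. In Bst2 the TTCNNNGAA match, which begins at -136, overlaps the first GAAA repeat. A match describes letters in a window and not a bound site. Because the members were picked as interferon-induced genes, a raised share of the response element core describes the list. It does not tell why their levels differed here.

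The windows of 5 genes are shown, read 5′ to 3′ on the strand of the gene with the response element core in capitals. Rsad2 (chr12:26456403-26456702, minus strand) and Ddx60 (chr8:61927837-61928136, plus strand) are the enzyme genes with the largest differences, Bst2 (chr8:71537423-71537722, minus strand) is a membrane protein gene with overlapping cores, and Slfn5 (chr11:82951852-82952151, plus strand) and Slfn9 (chr11:82991781-82992080, minus strand) are neighbours of the same family of which Slfn5 was called and Slfn9 was not.
Rsad2: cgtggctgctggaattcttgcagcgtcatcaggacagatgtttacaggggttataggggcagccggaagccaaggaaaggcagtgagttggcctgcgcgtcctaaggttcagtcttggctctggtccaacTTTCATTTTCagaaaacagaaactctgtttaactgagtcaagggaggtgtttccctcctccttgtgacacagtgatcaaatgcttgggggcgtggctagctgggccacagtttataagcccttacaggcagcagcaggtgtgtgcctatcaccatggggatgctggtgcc
Ddx60: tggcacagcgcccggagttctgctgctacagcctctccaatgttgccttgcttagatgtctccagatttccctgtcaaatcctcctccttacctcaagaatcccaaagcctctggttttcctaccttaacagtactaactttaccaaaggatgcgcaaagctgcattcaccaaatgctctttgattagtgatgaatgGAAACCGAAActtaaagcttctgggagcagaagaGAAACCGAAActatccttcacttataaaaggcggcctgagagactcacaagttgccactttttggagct
Bst2: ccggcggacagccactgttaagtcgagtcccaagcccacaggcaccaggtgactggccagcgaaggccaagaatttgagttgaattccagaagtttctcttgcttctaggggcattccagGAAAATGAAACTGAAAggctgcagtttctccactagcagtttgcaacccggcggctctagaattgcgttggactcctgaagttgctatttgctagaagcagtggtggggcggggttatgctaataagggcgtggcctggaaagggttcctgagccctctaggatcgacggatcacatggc
Slfn5: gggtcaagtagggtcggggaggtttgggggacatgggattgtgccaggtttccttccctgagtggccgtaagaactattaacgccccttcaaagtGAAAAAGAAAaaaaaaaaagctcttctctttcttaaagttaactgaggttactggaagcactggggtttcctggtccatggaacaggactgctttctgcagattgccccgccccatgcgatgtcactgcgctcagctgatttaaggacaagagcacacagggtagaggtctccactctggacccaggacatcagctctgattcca
Slfn9: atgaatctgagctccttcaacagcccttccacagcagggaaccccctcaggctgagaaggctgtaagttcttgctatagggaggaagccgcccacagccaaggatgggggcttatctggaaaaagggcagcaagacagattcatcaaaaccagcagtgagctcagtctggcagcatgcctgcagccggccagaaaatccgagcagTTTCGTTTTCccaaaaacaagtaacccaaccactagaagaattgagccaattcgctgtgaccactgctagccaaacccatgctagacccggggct
The core begins at position -120 from the start in Rsad2, at -53 and -19 in Ddx60, at -130 and -124 in Bst2, where the copies share 4 bases, at -155 in Slfn5 and at -45 in Slfn9.

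Among the genes of nucleotide and RNA enzymes, all 7 were higher in Yap1KO tumors. Rsad2 encodes viperin, which turns the nucleotide CTP into a chain terminator of viral RNA synthesis. It had 28.7, 14.3, 37.5 and 31.4 CPM in Yap1KO tumors, against 1.22, 2.19, 0.738 and 1.47 CPM in Yap1WT tumors. Every Yap1KO library was above every Yap1WT library, and Rsad2 was 20.1-fold higher (log2 fold change 4.33, SE 0.40, adjusted p = 0.000275). Cmpk2, a mitochondrial kinase of nucleoside monophosphates that lies 12.66 kb from Rsad2 on chromosome 12, averaged 28.0 ± 10.3 CPM in Yap1KO and 3.48 ± 0.871 CPM in Yap1WT tumors (SD, n = 4 each) and was 8.11-fold higher (adjusted p = 0.000686). Ddx60, an RNA helicase tied to the sensing of viral RNA, had 39.2, 13.6, 49.8 and 28.8 CPM in Yap1KO tumors, against 4.50, 4.12, 3.45 and 3.08 CPM in Yap1WT tumors. Even the lowest Yap1KO library, replicate 2, was above all Yap1WT libraries, and Ddx60 was 8.66-fold higher (log2 fold change 3.11, SE 0.36, adjusted p = 0.00093).

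The other enzyme genes were higher by smaller factors. Znfx1, an RNA helicase of antiviral sensing, averaged 79.2 ± 21.4 CPM in Yap1KO and 29.4 ± 4.25 CPM in Yap1WT tumors (2.70-fold, adjusted p = 0.00299). Helz2, a helicase and coactivator of nuclear receptors, averaged 94.7 ± 18.0 CPM in Yap1KO and 46.7 ± 8.57 CPM in Yap1WT tumors (2.03-fold, adjusted p = 0.00621). Isg20, an exonuclease that degrades viral RNA, averaged 32.7 ± 2.68 CPM in Yap1KO and 17.0 ± 1.82 CPM in Yap1WT tumors (1.93-fold, adjusted p = 0.00185). These 3 genes showed no overlap between the groups. Samhd1, which hydrolyses the deoxynucleotides needed to copy retroviral genomes, averaged 45.2 ± 8.63 CPM in Yap1KO and 27.7 ± 6.04 CPM in Yap1WT tumors (1.64-fold, adjusted p = 0.0478), and here the groups overlapped, since Yap1KO replicate 2 (34.6 CPM) was below Yap1WT replicate 4 (35.7 CPM). Its call was lost when any of 6 of the 8 libraries was left out (adjusted p up to 0.112 over all alternatives).

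**Figure D2:**
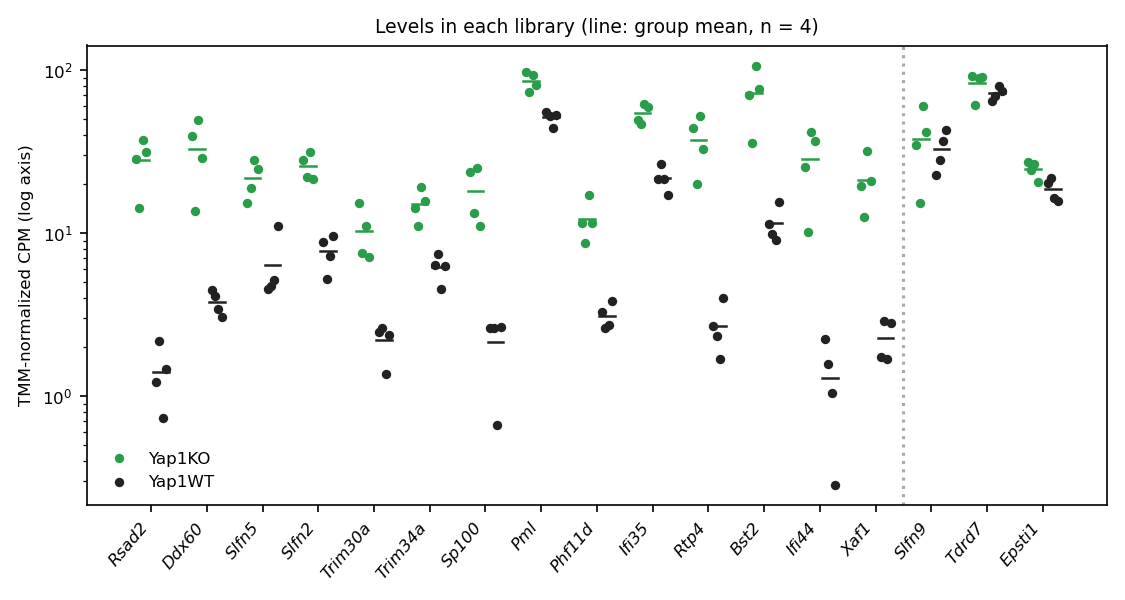
TMM-normalized CPM (vertical log axis) of 14 members that were higher in Yap1KO tumors and, right of the dotted line, 3 that did not pass the test (Slfn9, Tdrd7 and Epsti1). Points are single libraries, green for Yap1KO and black for Yap1WT, and lines are group means (n = 4). The green points stand above the black ones for the 14 members and mix with them for the other 3.

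Schlafen proteins bind or cut transfer RNA and hold back translation or proliferation. Slfn2, which keeps mouse T cells quiescent, had 28.1, 22.1, 31.5 and 21.5 CPM in Yap1KO tumors, against 8.87, 5.26, 7.21 and 9.56 CPM in Yap1WT tumors. Slfn5, a nuclear member, had 15.4, 18.8, 28.1 and 24.8 CPM in Yap1KO tumors, against 4.55, 4.73, 5.17 and 11.1 CPM in Yap1WT tumors. In both genes the groups were separate, with Yap1WT replicate 4 the highest Yap1WT library of each, and Slfn5 was 3.44-fold higher (log2 fold change 1.78, SE 0.32, adjusted p = 0.00994) and Slfn2 3.35-fold higher (log2 fold change 1.74, SE 0.22, adjusted p = 0.00141). The neighbours Slfn9 and Slfn8 on chromosome 11 did not pass the test. Slfn9 had 34.9, 15.3, 60.3 and 41.9 CPM in Yap1KO tumors, against 22.8, 28.0, 36.8 and 42.9 CPM in Yap1WT tumors. The Yap1KO libraries spanned the whole range of the Yap1WT libraries (log2 fold change 0.23, 95% interval -0.55 to 1.003, adjusted p = 0.777). Slfn8 had 1.13, 2.21, 2.74 and 0.983 CPM in Yap1KO tumors, against 1.02, 1.26, 0.232 and 1.11 CPM in Yap1WT tumors, and the interval of its log2 fold change of 0.98 ran over -0.28 to 2.25 (adjusted p = 0.382). The 2 genes share stretches of sequence with the pseudogene Slfn10-ps: 11.9% of all 50-base stretches of the longest Slfn9 transcript and 15.4% of those of Slfn8 also occur in other genes, so their counts are uncertain. The same holds for the called Slfn5, of whose stretches 11.8% occur in other genes, chiefly Slfn5os.

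TRIM proteins are mostly ubiquitin ligases that tag viral or signalling proteins, and all 5 members of this group were higher in Yap1KO tumors. Trim30a, which in mouse dampens inflammatory signalling through Nf-kB, had 15.4, 7.58, 11.1 and 7.10 CPM in Yap1KO tumors, against 2.49, 2.61, 1.38 and 2.36 CPM in Yap1WT tumors. Trim34a had 14.3, 11.1, 19.2 and 15.7 CPM in Yap1KO tumors, against 6.37, 7.50, 4.53 and 6.27 CPM in Yap1WT tumors. The groups were separate in both, and Trim30a was 4.68-fold higher (log2 fold change 2.22, SE 0.33, adjusted p = 0.00343) and Trim34a 2.45-fold higher (log2 fold change 1.29, SE 0.22, adjusted p = 0.00829). Trim34a shares 61.9% of its 50-base stretches with other genes, chiefly Trim34b (41.3%), so these reads may stand for either copy. Trim21, the cytosolic receptor of antibody-coated virus, averaged 13.7 ± 2.69 CPM in Yap1KO and 6.504 ± 1.57 CPM in Yap1WT tumors (2.10-fold, adjusted p = 0.0259). Trim14, a mitochondrial adaptor of antiviral signalling, averaged 19.4 ± 5.28 CPM in Yap1KO and 10.4 ± 1.90 CPM in Yap1WT tumors (1.88-fold, adjusted p = 0.0415). Trim25, the ligase that activates the RNA sensor Rig-I, averaged 203 ± 36.6 CPM in Yap1KO and 135 ± 4.73 CPM in Yap1WT tumors (1.504-fold, adjusted p = 0.0298). These last calls were close to the threshold: leaving out 1 library lost the call of Trim21 for 5 libraries and of Trim14 and Trim25 for 7 libraries each. Trim14 shares 57.8% of its stretches with other genes, chiefly Nans.

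Pml and Sp100 are the scaffolds of nuclear bodies that restrict incoming viral genomes. Pml had 97.1, 73.1, 93.9 and 81.1 CPM in Yap1KO tumors, against 55.5, 52.3, 44.4 and 53.1 CPM in Yap1WT tumors. It was 1.68-fold higher with no overlap (log2 fold change 0.75, SE 0.12, adjusted p = 0.00491). Sp100 had 23.6, 13.3, 25.1 and 11.0 CPM in Yap1KO tumors, against 2.62, 2.61, 0.666 and 2.65 CPM in Yap1WT tumors. Even its lowest Yap1KO library, replicate 4, stood well above the Yap1WT libraries, a difference of 8.63-fold (log2 fold change 3.11, SE 0.46, adjusted p = 0.00331). Sp110, a related chromatin reader that lies 39.1 kb from Sp100, had 2.11, 2.46, 1.85 and 0.601 CPM in Yap1KO tumors, against 1.21, 0.745, 0.565 and 0.824 CPM in Yap1WT tumors. The groups overlapped through Yap1KO replicate 4 (0.601 CPM), and it did not pass the test (log2 fold change 1.08, 95% interval -0.0038 to 2.16, adjusted p = 0.246). Of the 50-base stretches of Sp110, 53.8% also occur in other genes.

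Ifi35 and Nmi form a complex that acts in interferon signalling, and both were higher in Yap1KO tumors. Ifi35 had 49.8, 46.5, 62.2 and 59.5 CPM in Yap1KO tumors, against 21.5, 26.4, 21.6 and 17.1 CPM in Yap1WT tumors. The groups lay far apart (2.52-fold, log2 fold change 1.33, SE 0.15, adjusted p = 0.00093), while 10.7% of its 50-base stretches also occur in Gm11626, which makes its counts uncertain to that extent. Nmi averaged 35.5 ± 6.71 CPM in Yap1KO and 20.4 ± 1.93 CPM in Yap1WT tumors (1.75-fold, adjusted p = 0.0115). Phf11d, a PHD finger protein, had 11.6, 8.71, 17.1 and 11.6 CPM in Yap1KO tumors, against 3.27, 2.63, 2.72 and 3.83 CPM in Yap1WT tumors. It was 3.94-fold higher without overlap (log2 fold change 1.98, SE 0.26, adjusted p = 0.00172), while 12.2% of its 50-base stretches are shared, mainly with Phf11c. Its neighbour Phf11b, 6.019 kb away, did not reach the minimum of 0.5 CPM in 6 libraries: its reads numbered 34, 8, 83 and 1 in Yap1KO and 9, 12, 13 and 4 in Yap1WT tumors. Those levels overlapped, with an exact two-sided permutation p of 0.314, where 0.0286 is the smallest this design allows, and 47% of its stretches occur in other genes. Tdrd7, a tudor domain protein of RNA granules, had 92.7, 61.5, 89.7 and 91.2 CPM in Yap1KO tumors, against 65.1, 69.0, 79.7 and 74.7 CPM in Yap1WT tumors. Yap1KO replicate 2 was the lowest of all 8 libraries and the other Yap1KO libraries the highest, and the difference did not pass the test (log2 fold change 0.22, 95% interval -0.09 to 0.52, adjusted p = 0.43).

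Of 7 genes of membrane and secretory proteins, 6 were higher in Yap1KO tumors. Rtp4, a chaperone that carries receptors to the cell surface, had 44.5, 19.98, 52.6 and 32.9 CPM in Yap1KO tumors, against 2.71, 2.35, 1.68 and 4.01 CPM in Yap1WT tumors. It was 14.1-fold higher (log2 fold change 3.82, SE 0.35, adjusted p = 0.000288), although 13.6% of its stretches also occur in the gene Gm45338. Bst2, tetherin, which holds budding virus at the cell surface, had 70.6, 35.5, 105 and 76.2 CPM in Yap1KO tumors, against 11.4, 9.83, 9.13 and 15.5 CPM in Yap1WT tumors. Both genes were lowest in replicate 2 among the Yap1KO libraries, and that library too was above every Yap1WT library. Bst2 was 6.30-fold higher (log2 fold change 2.66, SE 0.30, adjusted p = 0.000938). Lgals3bp, a secreted glycoprotein that binds galectins, averaged 603 ± 139 CPM in Yap1KO and 264 ± 12.4 CPM in Yap1WT tumors (2.29-fold, adjusted p = 0.00253). Ifi27, a small hydrophobic protein of membranes, averaged 40.3 ± 2.93 CPM in Yap1KO and 14.6 ± 5.44 CPM in Yap1WT tumors (2.76-fold, adjusted p = 0.00497). Shisa5, a membrane protein of the p53 cell death response, was 1.30-fold higher (adjusted p = 0.0368), averaging 254 ± 17.9 CPM in Yap1KO and 196 ± 6.65 CPM in Yap1WT tumors, and Tor3a, an ATPase of the endoplasmic reticulum, 1.61-fold (adjusted p = 0.0463), averaging 52.6 ± 12.8 CPM in Yap1KO and 32.7 ± 1.76 CPM in Yap1WT tumors. In Tor3a the groups overlapped, since Yap1KO replicate 2 (33.6 CPM) was below Yap1WT replicate 3 (35.3 CPM). Leaving out a library lost the call of Shisa5 for each of the 8 libraries and of Tor3a for 7. Ifi27l2a lies over the same part of chromosome 12 as Ifi27. Of the stretches of its longest transcript, 0.483% also occur in another gene, Ifi27l2b, and for Ifi27 this share was 0%. The stretches counted were therefore not shared between Ifi27 and Ifi27l2a. Ifi27l2a had 3.55, 3.69, 5.44 and 6.17 CPM in Yap1KO tumors, against 1.61, 2.17, 0.869 and 2.72 CPM in Yap1WT tumors. Its groups did not overlap, yet its adjusted p was 0.0791 with a log2 fold change of 1.36 (95% interval 0.49 to 2.24), and it passed with limma-voom and DESeq2 (adjusted p 0.0134 to 0.0459).

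The last group holds genes outside these families. Ifi44, an interferon-induced cytoplasmic protein, had 25.5, 10.2, 41.8 and 36.5 CPM in Yap1KO tumors, against 2.24, 1.58, 1.04 and 0.286 CPM in Yap1WT tumors. The groups did not overlap (21.4-fold, log2 fold change 4.42, SE 0.58, adjusted p = 0.00188), and the fold changes of Ifi44 and Rsad2 differed by less than their standard errors. Its neighbour Ifi44l had 0 reads in all 8 libraries. Xaf1, which antagonises the caspase inhibitor Xiap and so favours apoptosis, had 19.5, 12.6, 32.0 and 20.8 CPM in Yap1KO tumors, against 1.73, 2.89, 1.68 and 2.79 CPM in Yap1WT tumors. The groups were far apart (9.43-fold, log2 fold change 3.24, SE 0.32, adjusted p = 0.000481). Epsti1, a gene first tied to the meeting of epithelium and stroma, had 27.3, 24.6, 26.6 and 20.5 CPM in Yap1KO tumors, against 20.2, 21.8, 16.4 and 15.8 CPM in Yap1WT tumors. Although 3 Yap1KO libraries were above every Yap1WT library, replicate 4 was not, and it did not pass the test (log2 fold change 0.42, SE 0.15, 95% interval 0.08 to 0.75, adjusted p = 0.153).

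Within the Yap1KO group many members shared their lowest and highest library. The summed level of the 35 genes was 2289, 1549, 2422 and 2225 CPM in Yap1KO replicates 1 to 4, against 1053, 1068, 1009 and 1086 CPM in Yap1WT replicates 1 to 4. Yap1KO replicate 2 gave the lowest level of its group in 22 of 33 genes, and Yap1KO replicate 3 the highest in 21. The same counts over all genes were not made, so whether they are particular to the members was not tested. Expressed over the Yap1WT mean, the median log2 difference was 1.22, 0.91, 1.41 and 1.37 in Yap1KO replicates 1 to 4, and 33, 31, 33 and 32 of the 33 members were above that mean. Without Yap1KO replicate 2, 26 members passed the test, and counts over all genes with 1 library left out are given at the end. The members' median log2 fold change without that library was 1.40, beside -0.02 for all genes tested in that setting. Among Yap1WT libraries, replicate 3 was the lowest in 18 of 33, again without a count over all genes. The numbers in the library names fall into a lower run (replicates 1 and 2) and a higher run (replicates 3 and 4). The median log2 difference of the 33 members between Yap1KO and Yap1WT was 0.93 in the lower and 1.55 in the higher run.

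**Figure D3:**
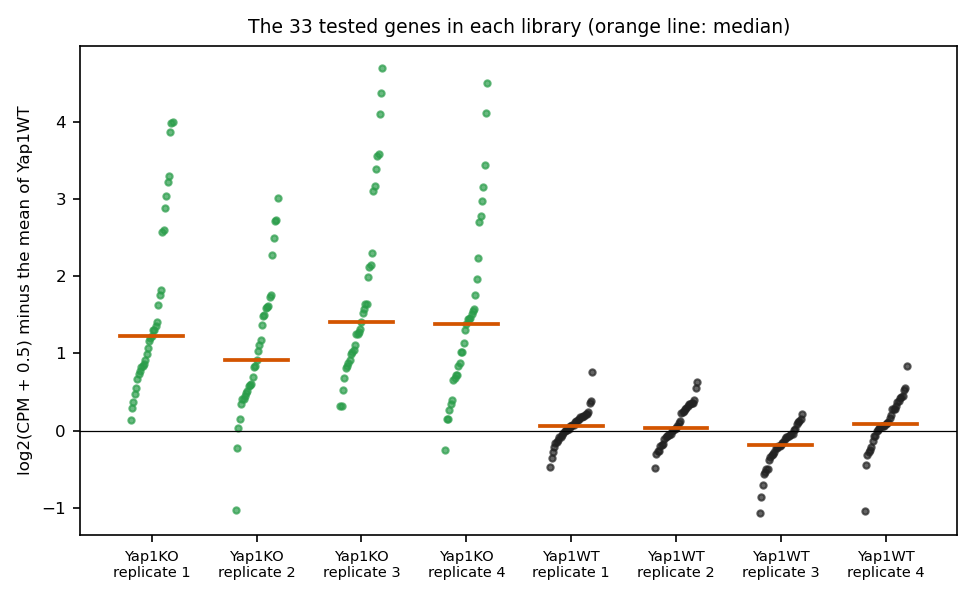
The 33 tested genes in each library, as log2(CPM + 0.5) minus the mean of the Yap1WT libraries (vertical axis), for Yap1KO and Yap1WT replicates 1 to 4 (horizontal axis). Each point is 1 gene and the orange line the median, which is 1.22, 0.91, 1.41 and 1.37 in the Yap1KO libraries and near 0 in the Yap1WT libraries.

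Levels of different genes were compared on the deposited log2 RPKM values, which are scaled to gene length. Lgals3bp was the most abundant tested member in both groups, with a mean level of 8.09 log2 RPKM in Yap1KO and 6.94 in Yap1WT tumors, ahead of Shisa5 (7.06 in Yap1KO and 6.66 in Yap1WT). Bst2 was the next in Yap1KO tumors, at 6.47, while in Yap1WT tumors its level of 3.92 was below those of Trim25 (4.62), Tdrd7 (4.36) and Ifi35 (4.01). Of the 33 tested members Slfn8 was the least abundant, at -1.39 in Yap1KO and -2.33 in Yap1WT tumors. Rsad2 had a level of 2.80 log2 RPKM in Yap1KO and -1.37 in Yap1WT tumors, and Ifi44 one of 3.12 in Yap1KO and -1.33 in Yap1WT tumors. Members at a low Yap1WT level differed by larger factors: the 11 genes under 0.5 log2 RPKM in Yap1WT had a median log2 fold change of 3.02 with 9 called, the 13 genes from 0.5 up to 3.5 one of 1.02 with 10 called, and the 9 genes at 3.5 or more one of 0.94 with 8 called. Across the 33 genes, Spearman's rho between the fold change and the Yap1WT level was -0.64, given as a description because the fold change shares the Yap1WT values and genes are not independent replicates.

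**Figure D4:**
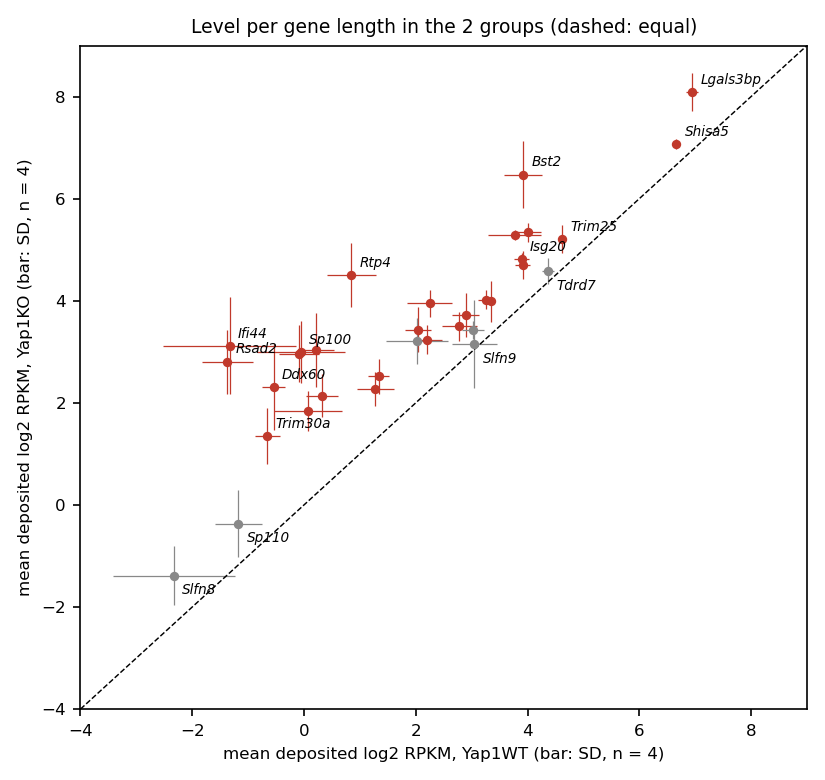
Mean deposited log2 RPKM of the 33 genes in Yap1WT (horizontal axis) and Yap1KO tumors (vertical axis), with SD bars (n = 4). Red genes passed the edgeR test, grey genes did not, and the dashed line marks equal levels. Genes far left in Yap1WT, such as Rsad2 (-1.37) and Ifi44 (-1.33), stand farthest above the line.

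Other interferon-stimulated genes were also higher in Yap1KO tumors. A list of 19 genes was made up of Isg15 and its protease Usp18, the OAS, IFIT and MX families, the nucleic acid sensors Ifih1, Ddx58, Dhx58 and Zbp1 and the RNA-activated kinase Eif2ak2. Of these 19, 17 were higher and 0 lower in Yap1KO tumors, beside 3.53% higher and 2.34% lower of all 13495 genes tested. The median log2 fold change of the 19 was 3.69. This list was chosen with earlier results of these libraries known. Mx1, a dynamin-like antiviral GTPase, had 42.3, 30.5, 55.6 and 41.3 CPM in Yap1KO tumors, against 4.16, 3.56, 3.20 and 2.11 CPM in Yap1WT tumors. The groups did not overlap (log2 fold change 3.69, SE 0.25, adjusted p = 0.000105). Oas3, which makes the activator of Rnase L, had 52.7, 21.2, 48.6 and 24.9 CPM in Yap1KO tumors, against 0.554, 0.396, 0.478 and 1.11 CPM in Yap1WT tumors, again with no overlap (log2 fold change 5.93, SE 0.44, adjusted p = 0.000174). Ifit2 (log2 fold change 1.73, adjusted p = 0.0871) and Eif2ak2 (log2 fold change 0.76, adjusted p = 0.0799) did not pass.

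Of 15 genes of the receptors and signal carriers, 4 were higher (Irf7, Irf9, Stat2 and Ifnar2) and 1 was lower (Ifngr1), beside 3.53% higher and 2.34% lower of all genes tested. The median log2 fold change of the 15 was 0.15, and this list too was chosen with earlier results known. Irf7, the master regulator of type I interferon genes, had 253, 102, 229 and 182 CPM in Yap1KO tumors, against 15.4, 14.3, 8.92 and 6.73 CPM in Yap1WT tumors. Irf9, a DNA-binding transcription factor of the interferon response, had 71.8, 53.7, 86.8 and 67.9 CPM in Yap1KO tumors, against 27.9, 26.97, 20.9 and 26.0 CPM in Yap1WT tumors. Both were separate between the groups (Irf7: log2 fold change 4.07, SE 0.35, adjusted p = 0.000209, and Irf9: log2 fold change 1.46, SE 0.16, adjusted p = 0.000639). Ifngr1, a chain of the interferon gamma receptor, had 97.7, 100.1, 105 and 101 CPM in Yap1KO tumors, against 126, 125, 134 and 135 CPM in Yap1WT tumors, so that its Yap1KO levels were below all Yap1WT levels (log2 fold change -0.36, SE 0.08, adjusted p = 0.0273). Of 9 interferon genes, 0 had enough reads to be tested. Ifna1, Ifna2 and Ifna4 had 0 reads in every library, Ifnb1 had 5 reads in Yap1KO replicate 2 and 0 elsewhere, and Ifnl2 and Ifnl3 had 13 and 18 reads in Yap1KO replicate 3 and 0 elsewhere. Ifne was the ligand gene with the most reads, 10, 9, 2 and 0 in Yap1KO and 75, 35, 29 and 8 in Yap1WT tumors.

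Markers of other cells were measured beside these genes, since immune and stromal cells also express the interferon program. Of 13 leukocyte markers, 4 had enough reads to be tested and 1, the macrophage marker Cd68, was higher (6.01, 7.89, 6.46 and 4.31 CPM in Yap1KO tumors, against 2.84, 3.61, 2.53 and 2.90 CPM in Yap1WT tumors, adjusted p = 0.0468). Their summed level was 12.7 to 34.5 CPM in Yap1KO and 15.1 to 24.1 CPM in Yap1WT tumors, so the ranges overlapped, and the pan-leukocyte gene Ptprc had 4.47, 4.29, 1.19 and 4.26 CPM in Yap1KO tumors, against 7.63, 6.15, 12.4 and 5.62 CPM in Yap1WT tumors (adjusted p = 0.151). Unlike Cd68, the myeloid markers Lyz2, Adgre1, Csf1r and Itgax had lower means in Yap1KO than in Yap1WT tumors. Lyz2 averaged 1.55 CPM in Yap1KO and 2.20 CPM in Yap1WT tumors (edgeR adjusted p = 0.827). Adgre1, Csf1r and Itgax averaged at most 0.273 CPM in Yap1KO and 0.404 CPM in Yap1WT tumors and were not tested. Cd3e, Cd3g, Nkg7, Cd79a and Ms4a1, markers of lymphocytes, had group means of at most 0.0672 CPM, and the T cell gene Trbc2 averaged 0.242 ± 0.292 CPM in Yap1KO and 0.606 ± 0.328 CPM in Yap1WT tumors. Cd74, of antigen presentation, had 22.9, 11.9, 2.84 and 6.33 CPM in Yap1KO tumors, against 10.1, 7.06, 1.52 and 3.12 CPM in Yap1WT tumors. Of 5 markers of plasmacytoid dendritic cells, a main source of interferon, Irf8 (log2 fold change 0.79, adjusted p = 0.0346) and Ly6d (log2 fold change 1.41, adjusted p = 0.00899) were higher, Tcf4 was not, and the defining Siglech had 0 reads in all 4 Yap1KO libraries. Ccr9, the fifth of the list, averaged 0.177 CPM in Yap1KO and 0.122 CPM in Yap1WT tumors and was not tested. The summed level of this list was 689 to 1226 CPM in Yap1KO and 300.2 to 524 CPM in Yap1WT tumors, of which Ly6d gave 560.3 to 1082 CPM in Yap1KO and 185 to 395 CPM in Yap1WT tumors. The sum therefore mostly follows Ly6d, which the study lists among surface molecules raised in gastric tumor cells depleted of Yap1.

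Stromal marker lists had median fold changes above 1, while 1 of their 12 genes passed the test. The 6 endothelial markers had a median log2 fold change of 1.32, of which Tie1 passed the test (log2 fold change 1.42, adjusted p = 0.0355), and their summed level was 415 to 857 CPM in Yap1KO and 128 to 483 CPM in Yap1WT tumors. Plvap, of fenestrated endothelium, had 214, 348, 309 and 403 CPM in Yap1KO tumors, against 95.7, 90.2, 60.1 and 239 CPM in Yap1WT tumors (adjusted p = 0.0649). The 6 fibroblast markers had a median log2 fold change of 0.998 with 0 called, and summed to 306 to 1038 CPM in Yap1KO and 81.5 to 675 CPM in Yap1WT tumors. Col3a1 had 132, 176, 355 and 460.3 CPM in Yap1KO tumors, against 136, 54.8, 45.3 and 309 CPM in Yap1WT tumors, so that Yap1WT replicate 4 was above 2 of the Yap1KO libraries. The 4 foveolar markers had a median log2 fold change of -0.64 with 0 called. At an unadjusted edgeR p under 0.05, 3 of the 4 were lower, beside 8.97% of all genes. Gkn1, a secreted product of the surface epithelium, had 7297, 9991, 10372 and 12588 CPM in Yap1KO tumors, against 9910.0, 20908, 16777 and 14165 CPM in Yap1WT tumors. Muc5ac varied more, with 120, 16.7, 464 and 380 CPM in Yap1KO tumors, against 193, 246, 490 and 626 CPM in Yap1WT tumors (edgeR adjusted p = 0.682). The part of these cell types in the level of the interferon-stimulated genes was not tested.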

How the data were processed

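Sorted EpCAM-positive tumor cells gave bulk RNA libraries (TruSeq, paired-end), 1 per mouse. The kit does not mark strand, and a gene cannot be separated from an antisense gene that overlaps it. The authors aligned the reads to GRCm38 with Subread and made the deposited counts per gene, whole numbers without normalization, with featureCounts and RefSeq genes. The authors also deposited log2 values (voom, quantile normalization), which are log2 RPKM under a header that reads FPKM. The scaling to length behind them is not given in the sources used here.

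The 8 count columns whose names carry a library's number were used, and 6 others matched no sample. The table has 27179 entries. Entries without a symbol were dropped (1277, holding 0.552% to 0.789% of a library's counts), apart from 35 for which RefSeq (GRCm38.p6) gave a name, as were 762 pseudogenes, with 73 others kept because the log2 values hold them.

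Genes had to exceed 0.5 CPM in 6 or more libraries, which left 13495. The test was edgeR's quasi-likelihood test (version 4.0.16 in R 4.3.3) with TMM factors, Benjamini-Hochberg adjustment over all genes and a threshold of 0.05, and the script was tested on simulated data. Each standard error is the log2 fold change divided by the root of its F value. Alternatives were DESeq2 1.42.0, limma 3.58.1, other scalings and filters, blocks, a sex term and leaving out each library. The members and lists were chosen with earlier results of these data known, and 1 gene of the receptor and signal list is not reported here. Values in all 8 libraries are given for Yap1, for the 2 called members of each role with the largest fold change, and for all members not called or not tested. Shared sequence was counted as 50-base stretches of the longest GENCODE M21 transcript found in another gene.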

Additional observations from a re-analysis of the deposited data

Results flagged for a closer look

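In 8 of the 66 sets of 4 libraries (33 genes in 2 groups), 1 library stood apart from the other 3 by Dixon's test. Chance flags about 1 in 20 single sets, but the 33 genes come from the same 8 libraries. The sets are therefore not independent, and 1 low library can be counted many times. Yap1KO replicate 2 was the low library in 6 of the 8 flagged sets. Its level was 12.7 CPM for Cmpk2, against 31.8 to 34.6 CPM in the other Yap1KO libraries, and 47.3 CPM for Znfx1, against 86.1 to 92.1 CPM. For Trim25 it was 149 CPM, against 217 to 231 CPM, and for Lgals3bp 395 CPM, against 658 to 684 CPM. For Tor3a it was 33.6 CPM, against 57.6 to 60.5 CPM, and for Tdrd7 61.5 CPM, against 89.7 to 92.7 CPM. Among the Yap1WT libraries, replicate 4 was high for Slfn5 (11.1 CPM, against 4.55 to 5.17 CPM in the others), and replicate 3 was low for Sp100 (0.666 CPM, against 2.61 to 2.65 CPM).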

How the results depend on the processing

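Of the 27 members called higher, 21 kept the call in all 20 alternatives, and 0 members were called lower in any of them. The number higher was 28 with DESeq2 and limma-voom, 24 with a sex term (Xist reads marked Yap1KO replicate 4 and Yap1WT replicates 1 and 4 as female) or with limma-trend on the log2 values, 25 with RLE or no scaling factors, 26 with the looser filter or no filter on low counts, and 21 to 26 when 1 library was left out. The 6 members that lost the call in 1 or more alternatives (adjusted p 0.0502 to 0.125) were Samhd1, Trim14, Trim21, Trim25, Shisa5 and Tor3a. The members' median log2 fold change was 1.16 to 1.40 over the alternatives. Slfn9, which was not called, had a log2 fold change of -0.082 without Yap1KO replicate 3 and up to 0.49 without another library. Over all genes, DESeq2 called 858 higher and 587 lower, and limma-voom 571 higher and 385 lower. RLE factors gave 456 higher and 318 lower, and no scaling factors 448 and 265. The looser filter gave 466 higher and 316 lower, and no filter 466 and 293. Leaving out 1 library gave 247 to 485 higher and 158 to 298 lower, against 476 higher and 316 lower in the main test. The lowest counts came without Yap1WT replicate 3 (247 and 158), Yap1KO replicate 4 (271 and 194) and Yap1KO replicate 1 (290 and 208). The cause was not tested.

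With the replicate number as a block, 27 members were higher, and over all genes 755 were higher and 552 lower. Libraries with the same number correlated at 0.0602 to 0.387 in their deviations from the group means. Yap1KO replicates 2 and 4 correlated best with the Yap1WT library of their own number (0.387 and 0.192). Yap1KO replicate 1 did so with Yap1WT replicate 3 (0.0981) and Yap1KO replicate 3 with Yap1WT replicate 4 (0.265). The labels name no pairs and the main test used none, and whether the libraries are paired is not settled here.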
